A study of Mus musculus with 11 samples.

Results

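The response of the Lmnb2 KO heart to transverse aortic constriction (TAC) was described across all expressed genes, from the 6 libraries of the series whose labels give the genotype as Lmnb2 KO. These are 3 libraries with the treatment label TAC surgery and 3 with the label sham surgery, of 11 libraries in all. The other 5 come from control mice (2 sham, 3 TAC). They share the gene filter, the scaling and the estimate of spread behind each test with the KO libraries. Their own response is described only where the genotypes were compared.

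The study sequenced bulk RNA of ventricular myocardium from mice operated on at 10 to 12 weeks of age, and its title concerns nuclear pore numbers, nuclear import and the cardiac stress response. KO mice were homozygous for a floxed Lmnb2 allele and carried a Tnnt2-Cre transgene, while the controls carried Tnnt2-Cre without floxed Lmnb2, so that the recombinase is common to all groups. The genotype of 1 control sham library is labelled WT and of the other controls Lmnb2 WT. The Tnnt2 promoter drives Cre in cardiomyocytes, and other cells of the ventricle keep Lmnb2. The sources used here do not give the strain or the interval from surgery to sampling. Each KO group held 1 library with the letter F in its title (KO sham 2 and KO TAC 3) and otherwise the letter M. Among the controls WT TAC 1 carried F, while both sham libraries and WT TAC 2 and 3 carried M.

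TAC places a suture around the aortic arch, so that the left ventricle has to pump against a raised pressure. In textbook accounts of such pressure overload, cardiomyocytes enlarge and return to genes of the fetal ventricle, such as those of the natriuretic peptides and skeletal alpha actin. They also turn down genes of mitochondrial fuel oxidation and of ion channels, while fibroblasts become activated and deposit collagen and other matrix proteins. Lamin B2, the product of Lmnb2, is a filament protein of the nuclear lamina, the mesh beneath the inner nuclear membrane that anchors nuclear pores.

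The KO libraries held 14770383 to 17333227 counts on 16615 to 18606 genes. Values below are CPM, counts scaled to a common library total with TMM, a factor that sets most genes of the libraries level, and 3 counts equal 0.143 to 0.278 CPM in a library. The mitochondrially encoded RNAs took 41.2% ± 4.44 (SD, n = 3) of counts in KO sham and 28% ± 7.03 (n = 3) in KO TAC, with an exact permutation p of 0.1 (2-sided, the smallest p that 20 arrangements allow). KO TAC 1 stood apart from KO TAC 2 and 3: ribosomal protein genes took 0.872% of its counts against 3.22% and 3.18%, and mitochondrial RNAs 35.9% against 25.9% and 22.3%. Several of the results that KO TAC 1 moves are therefore also given without it. The numbers in the titles of the TAC mice are all lower than those of the sham mice, and any batch that follows them cannot be told apart from surgery.

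Lmnb2 itself measured 0.649, 1.81 and 2.43 CPM in KO sham 1 to 3 and 9.72, 3.24 and 4.46 CPM in KO TAC 1 to 3. Every TAC library was thus above every sham library, and the change of 1.81 ± 0.58 (SE) on the log2 scale did not pass the test (edgeR adjusted p = 0.102). The related B-type lamin gene Lmnb1 measured 4.08, 2.05 and 1.67 CPM after sham and 22.0, 6.01 and 5.26 CPM after TAC (log2 change 2.11 ± 0.58, edgeR adjusted p = 0.0598). Both genes were highest in KO TAC 1, and without it the changes were 1.18 (Lmnb2) and 1.09 (Lmnb1). Each was called higher in 4 of 16 other settings, DESeq2 among them. In bulk tissue, more Lmnb2 per cell and more cells that keep Lmnb2 cannot be told apart, and the same holds for fewer cells of a type and less RNA per cell at every gene below. Defining cardiomyocyte genes were high in all 6 libraries, Tnnt2 (cardiac troponin T) at 4864 to 8138 CPM and Actc1 (cardiac alpha actin) at 5757 to 9529 CPM. Of the 11 atrial markers Sln, Myl7 and the growth factor gene Bmp10 were among those too low to be tested. Of the 7 tested 1 rose and 1 fell, with a median log2 change of 1.71. The list, which includes Nppa and Myh7, summed to 61.8 to 97.8 CPM in sham and 407, 2132 and 1425 CPM in KO TAC 1 to 3. The part of atrial tissue in the samples was not tested.

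After TAC, 486 genes rose and 201 fell in KO, out of 14619 tested (edgeR quasi-likelihood test, Benjamini-Hochberg adjusted p under 0.05). These are 4.7% of the genes tested, 3.32% higher and 1.37% lower. The rises were larger than the falls, with a median log2 change of 2.35 for the genes that rose and -1.46 for those that fell, beside a median of 0.03 over all genes tested. A change of more than 3 on the log2 scale was seen in 187 rises and 17 falls. The 3 TAC libraries lay above all 3 sham libraries for 485 of the 486 rises and below them for all 201 falls, against 13% (higher) and 12.8% (lower) of all genes tested. The plot of change against level shows rises among genes of low, middle and high level, but not among the most abundant.

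The genes that rose or fell were called from these same libraries. Their separation between groups and their shift in each TAC library therefore follow in part from that choice. The median difference from the KO sham mean over the genes that rose was 1.94, 2.27 and 2.37 on the log2 scale in KO TAC 1, 2 and 3, and over the genes that fell -1.27, -1.61 and -1.53. Without KO TAC 1, 582 genes rose and 390 fell. When libraries were scaled by their totals in place of TMM, the median change of all genes became 0.49 and 1325 genes rose while 60 fell, so that the split between rises and falls depends on that scaling.

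**Figure D1:**
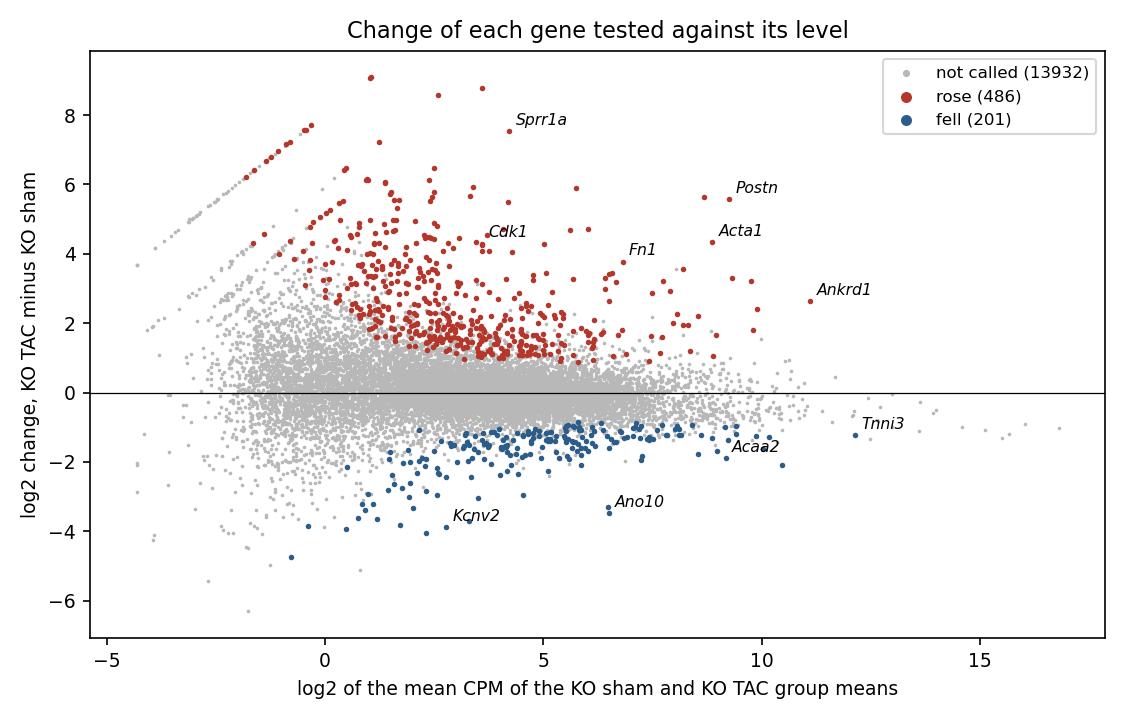
The log2 change of each of the 14619 genes tested, KO TAC minus KO sham (vertical axis), against the log2 of its mean CPM (horizontal axis). Points stand for genes, in red for the 486 that rose, in blue for the 201 that fell and in grey for the rest, and the rises reach further from 0 than the falls.

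Genes of cardiomyocyte hypertrophy and of the fetal ventricle rose. Of 31 genes tested from that list 14 rose (45.2%, beside 3.32% of all genes) and 0 fell, and the median log2 change of the list was 1.71 beside 0.03 over all genes. Nppa, which encodes atrial natriuretic peptide, a hormone of the loaded heart that promotes salt excretion, measured 15.8, 23.1 and 9.45 CPM in KO sham 1 to 3 and 98.5, 1633 and 673 CPM in KO TAC 1 to 3. Its log2 change was 5.63 ± 0.85 (edgeR adjusted p = 0.00402), with no overlap between groups and with KO TAC 1 far below the other TAC libraries. Nppb, the gene of brain natriuretic peptide, measured 222, 93.6 and 188 CPM after sham and 280, 2194 and 2240 CPM after TAC (log2 change 3.23 ± 0.78, edgeR adjusted p = 0.0345). In KO TAC 1 Nppb was thus close to the highest sham value, and its call was lost in 7 of 16 other settings.

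Acta1, the skeletal alpha actin that the fetal ventricle uses, measured 24.6, 67.9 and 39.2 CPM after sham and 925, 1143 and 612 CPM after TAC. That is a 20.3-fold rise (log2 change 4.35 ± 0.54, edgeR adjusted p = 0.00163), seen to a like degree in all 3 TAC hearts. Ankrd1, a stretch-responsive protein of the sarcomere and nucleus, rose from 500, 831 and 507 CPM to 3356, 4746 and 3345 CPM (log2 change 2.64 ± 0.44, edgeR adjusted p = 0.00627). Nmrk2, a kinase of NAD synthesis, rose from 2.87, 2.23 and 4.31 CPM to 41.0, 101 and 42.1 CPM (log2 change 4.29 ± 0.53, edgeR adjusted p = 0.00163). None of these 3 genes had overlapping groups, and none lost its call in any of the 16 settings.

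Rcan1, a feedback inhibitor of calcineurin and a common readout of its activity, measured 42.0, 45.1 and 61.0 CPM after sham and 126, 202 and 191 CPM after TAC (log2 change 1.81 ± 0.27, edgeR adjusted p = 0.00408). Cilp, a secreted matrix protein, had one of the largest changes of the list at 5.89 ± 0.65 (edgeR adjusted p = 0.000954), from 0.278, 3.08 and 1.81 CPM to 49.3, 143 and 125 CPM. Sprr1a, a stress-induced protein, rose from 0.0927, 0.121 and 0.347 CPM to 10.1, 77.0 and 24.0 CPM (log2 change 7.54 ± 1.04, edgeR adjusted p = 0.00308). Meox1, Fhl1, Actn1, Pfkp, Xirp2 and Enah completed the rises, with log2 changes of 1.10 (Enah) to 2.18 (Meox1).

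Myh7, a slow myosin that mouse ventricles use before birth, measured 26.7, 55.7 and 39.9 CPM after sham and 293, 469 and 695 CPM after TAC, without overlap. Its log2 change of 3.57 ± 0.94 stood just outside the threshold (edgeR adjusted p = 0.0501) and passed in 9 of 16 other settings. The adult form Myh6 measured 6719, 11553 and 6654 CPM against 8864, 3202 and 2020 CPM, and its change of -0.82 ± 0.57 did not pass (edgeR adjusted p = 0.492), with KO TAC 1 inside the sham range and a change of -1.70 without that library. Of the 14 genes of the list that rose, KO TAC 1 was the lowest TAC library for 10. Without KO TAC 1, 18 of the 31 genes rose.

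**Figure D2:**
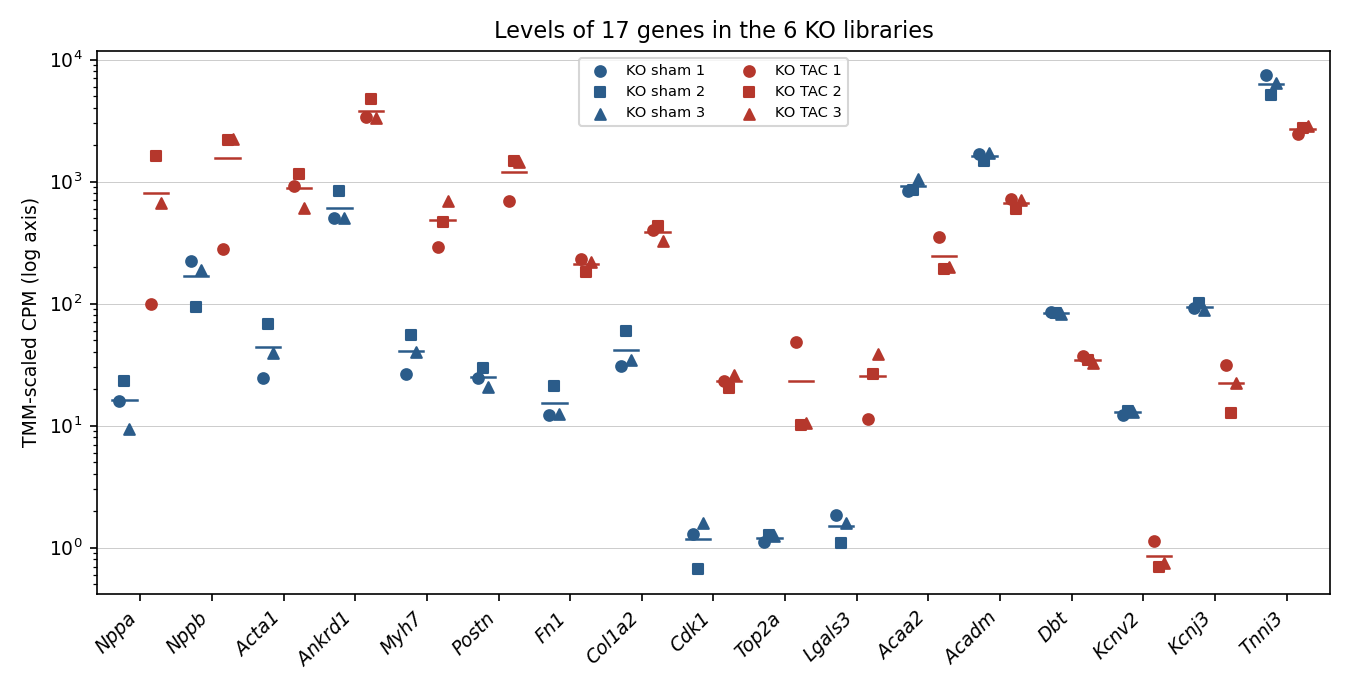
TMM-scaled CPM (log axis) of 17 genes in the 6 KO libraries, with symbols for the 3 sham (blue) and 3 TAC (red) libraries and horizontal lines for the group means. Acta1 lies at 24.6 to 67.9 CPM after sham and 612 to 1143 CPM after TAC, while Nppa and Nppb in KO TAC 1 lie below KO TAC 2 and 3.

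Acta1 lies on chromosome 8, at chr8:123891769-123894751 (GRCm38, minus strand, GENCODE M21), and its promoter is shown because it holds several elements known from muscle genes. The sequence is from the RefSeq promoter table for GRCm38.p6 and covers chr8:123894776-123895025 (minus strand), the 250 bases before the RefSeq start, which lies 24 bases upstream of the GENCODE start. Capitals mark the CArG box, the element bound by serum response factor, then the MCAT element, bound by TEAD factors, and TATAAA, the box at which the basal transcription machinery assembles.
Acta1: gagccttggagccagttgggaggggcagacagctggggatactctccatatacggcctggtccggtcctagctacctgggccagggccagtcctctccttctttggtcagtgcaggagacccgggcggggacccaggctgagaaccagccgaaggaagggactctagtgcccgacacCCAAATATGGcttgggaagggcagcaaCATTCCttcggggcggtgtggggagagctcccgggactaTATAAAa
The 3 matches begin 73, 46 and 7 bases before the RefSeq start. On either strand of such a window a CArG box was found in 5 of the 28 hypertrophy genes with an entry (17.9%) and in 1.41% of the 10944 tested genes with one. The MCAT letters, CATTCC, were found in 25.0% of these 28 genes and in 13.1% of the tested genes. Over all 32851 RefSeq promoters the shares were 1.47% and 12.6%. A match is a description of letters and was not tested as a site.

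Contractile and calcium handling genes fell in larger shares than all genes, though the counts were small. Of 29 sarcomere and Z-disc genes 3 fell (10.3%, beside 1.37% of all genes) and 1 rose (3.45%, beside 3.32%). Tcap, the Z-disc protein telethonin, measured 1877, 1787 and 1071 CPM after sham and 546, 493 and 483 CPM after TAC (log2 change -1.64 ± 0.34, edgeR adjusted p = 0.0191). Tnni3, cardiac troponin I, measured 7403, 5157 and 6370 CPM against 2472, 2771 and 2874 CPM (log2 change -1.22 ± 0.31, edgeR adjusted p = 0.0419). Trim63, the ubiquitin ligase MuRF1, fell by 0.98 on the log2 scale, and Synpo2l, a Z-disc protein, rose by 1.64. The groups of Tcap and Tnni3 were separate, but the call of Tnni3 was lost in 8 of 16 settings, of Trim63 in 9 and of Tcap in 5. With library totals 1 gene of the list rose, 0 fell and the median, -0.20, became 0.24. The median of all genes was 0.49 in that setting and 0.03 in the main fit, so that the list median lay below it in both.

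Of 25 calcium handling genes 1 fell (4%, beside 1.37% of all genes) and 0 rose. Cacnb2, a subunit of the L-type calcium channel, fell from 56.7, 68.7 and 57.9 CPM to 33.7, 25.8 and 33.7 CPM (log2 change -0.97 ± 0.23, edgeR adjusted p = 0.0327). No calcium gene fell without KO sham 1, 2 or 3, KO TAC 2 or KO TAC 3, left out one at a time. The same held in the fit of KO libraries alone, and with library totals 1 rose and 0 fell. More calcium genes fell elsewhere, 2 without the filter on low counts and 3 under DESeq2. Dropping KO TAC 1 also gave 3 falls, and adding the ribosomal protein share to the fit gave 4. When KO TAC 1 and WT TAC 3 were both dropped, 6 fell and 1 rose. Atp2a2 (SERCA2, which pumps calcium back into its store) measured 7992, 9113 and 7336 CPM after sham and 5016, 2585 and 2143 CPM after TAC. All TAC values lay below the sham values, and its change of -1.33 ± 0.38 did not pass the test (edgeR adjusted p = 0.0691) but did without KO TAC 1. Pln, the inhibitor of that pump, measured 12018, 9546 and 10686 CPM against 4212, 5482 and 6485 CPM (log2 change -1.0 ± 0.27, edgeR adjusted p = 0.0592).

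Among 29 potassium, sodium and chloride channel genes 5 fell (17.2%) and 1 rose, with a list median of -0.97. Kcnv2, a modifier subunit of voltage-gated potassium channels on chromosome 19 (chr19:27322588-27337179, GRCm38, plus strand), measured 12.2, 13.3 and 12.9 CPM after sham and 1.14, 0.693 and 0.744 CPM after TAC. Its log2 change of -3.88 ± 0.42 had the smallest adjusted p of all falls (edgeR adjusted p = 0.000874), and its 3 values within each group were close together. Kcnj3 and Kcnj5, the subunits of the acetylcholine-gated potassium channel, fell together. Kcnj3 measured 92.6, 102 and 87.8 CPM against 31.6, 12.7 and 22.4 CPM (log2 change -2.08 ± 0.31, edgeR adjusted p = 0.00402), and Kcnj5 85.9, 84.8 and 75.2 CPM against 33.6, 26.5 and 28.5 CPM (-1.47 ± 0.24, edgeR adjusted p = 0.00604).

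Kcnd2, which carries transient outward potassium current, fell by 1.79 ± 0.34 (edgeR adjusted p = 0.0115), and Clcn1, a chloride channel, fell by 2.62 ± 0.55 (edgeR adjusted p = 0.0197). For all 5 falls KO TAC 1 was the highest of the TAC libraries, and the median of the list was -0.39 in KO TAC 1 against -1.05 in KO TAC 2 and -1.46 in KO TAC 3. Without KO TAC 1, 14 of the 29 channel genes fell. Without KO sham 3, KO TAC 2 or KO TAC 3 3 fell, one library at a time.

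Matrix genes gave the largest share of rises of any list. Of 48 collagen and matrix genes 36 rose (75.0%, beside 3.32% of all genes) and 0 fell, with a median log2 change of 2.65, which stays 2.65 when Cthrc1, at 0 counts in KO sham, is set to its lower bound. Postn encodes periostin, a matricellular protein of activated fibroblasts, on chromosome 3 (chr3:54361109-54391037, GRCm38, plus strand). It measured 24.7, 29.9 and 20.6 CPM after sham and 691, 1484 and 1432 CPM after TAC, a 47.9-fold rise (log2 change 5.58 ± 0.45, edgeR adjusted p = 0.000176). Fn1, fibronectin, rose from 12.3, 21.1 and 12.5 CPM to 231, 180 and 219 CPM (log2 change 3.78 ± 0.30, edgeR adjusted p = 0.000176). These were the smallest adjusted p-values of the comparison, and all 3 TAC hearts shared the rise.

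Fibrillar collagens rose with them. Col1a2, a chain of type I collagen, measured 30.9, 59.1 and 34.2 CPM after sham and 402, 435 and 326 CPM after TAC (log2 change 3.23 ± 0.32, edgeR adjusted p = 0.000582). Its partner chain Col1a1 measured 7.78, 33.7 and 18.3 CPM against 256, 172 and 123 CPM (3.20 ± 0.52, edgeR adjusted p = 0.00563), and Col3a1, type III collagen, 98.8, 132 and 123 CPM against 943, 1462 and 1094 CPM (3.31 ± 0.41, edgeR adjusted p = 0.00163). The network collagen Col8a1 rose by 3.31 ± 0.34, and the microfibril gene Fbn1 rose by 2.98. Ltbp2, a latent TGF-beta binding family protein of elastic fibres, rose by 5.49 ± 0.53 (edgeR adjusted p = 0.000545).

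Not every matrix gene followed. The small proteoglycan genes Dcn and Ogn had log2 changes of 0.08 and -0.01, and Lum one of 1.29 ± 0.34 that did not pass (edgeR adjusted p = 0.0519). Basement membrane chains passed in part, with Col4a1 called at 1.94 and Col4a2, at 1.56, not called. The count of rises fell to 19 without KO sham 1 and 21 without KO sham 3, and was 41 with library totals.

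Enzymes and inhibitors that process matrix rose as well, 15 of 39 (38.5%) with 0 falls and a median of 1.12. Lox, lysyl oxidase, which cross-links collagen and elastin, measured 3.52, 2.84 and 4.45 CPM after sham and 30.3, 120 and 131 CPM after TAC (log2 change 4.70 ± 0.62, edgeR adjusted p = 0.00217). Its relative Loxl3 rose by 2.86 ± 0.36 and Adamts2, a procollagen peptidase, by 2.16 ± 0.28. Mmp14, a membrane-bound metalloproteinase, rose from 2.5, 3.86 and 6.11 CPM to 35.5, 24.4 and 21.7 CPM, while Timp1, an inhibitor of such proteinases, rose from 1.58, 0.845 and 4.24 CPM to 32.2, 53.1 and 25.3 CPM. Proteinases and an inhibitor thus rose in the same hearts. The gelatinase genes Mmp2 (log2 change 1.40) and Mmp9 (0.13) did not pass the test. Without KO sham 1 the count of rises was 8.

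Of 30 TGF-beta family genes 5 rose (16.7%) and 0 fell. The ligand genes Tgfb2 and Tgfb3 rose by 1.73 ± 0.42 (edgeR adjusted p = 0.0345) and 1.61 ± 0.33 (edgeR adjusted p = 0.0161), and the receptor gene Tgfbr1 by 1.07 ± 0.25 (edgeR adjusted p = 0.0328). The bone morphogenetic family ligand Gdf6 measured 0.185, 0 and 0.139 CPM after sham and 2.43, 2.48 and 1.66 CPM after TAC (4.36 ± 0.73, edgeR adjusted p = 0.00634), and Fstl1, a secreted follistatin-like protein, 52.4, 56.6 and 59.1 CPM against 243, 456 and 579 CPM (2.93 ± 0.36, edgeR adjusted p = 0.00163). The calls of Tgfb2, Tgfb3 and Tgfbr1 were lost in 6, 4 and 5 of the 16 settings, and those of Gdf6 and Fstl1 in 0.

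Markers of resident fibroblasts did not all rise with the matrix. Of 21 fibroblast markers 6 rose and 2 fell, and the summed level of the list was 1956 to 2144 CPM in the sham libraries and 3077, 3760 and 3751 CPM in KO TAC 1 to 3. The defining markers Pdgfra, a growth factor receptor, and Tcf21, a lineage transcription factor, had log2 changes of 0.26 ± 0.29 (edgeR adjusted p = 0.712) and 0.97 ± 0.50 (edgeR adjusted p = 0.326). Gsn, the actin-severing protein gelsolin, fell from 646, 968 and 698 CPM to 360, 143 and 216 CPM (-1.68 ± 0.35, edgeR adjusted p = 0.0181), and Clec3b, a plasminogen-binding protein, fell by 1.71 ± 0.43 (edgeR adjusted p = 0.0419). Of the 6 that rose, Col1a1, Col3a1, Mfap4 and Mfap5 are matrix genes, also counted among the matrix genes above. The part of fibroblast number in the rise of matrix genes was not tested.

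Of 14 myofibroblast and smooth muscle markers 2 rose, Cnn1 and Cald1, both of which bind actin. Cnn1, calponin, measured 1.58, 1.15 and 1.32 CPM after sham and 2.62, 32.9 and 32.8 CPM after TAC (4.08 ± 0.76, edgeR adjusted p = 0.0106), with KO TAC 1 near the sham level. Acta2, the smooth muscle actin, measured 87.6, 85.1 and 146 CPM against 136, 134 and 83.3 CPM and did not pass (0.14 ± 0.33, edgeR adjusted p = 0.879). None of the 20 endothelial markers was called, with a list median of 0.27 that became -0.01 without KO TAC 1. The endothelial junction gene Cdh5 measured 83.9, 140 and 110 CPM after sham and 316, 101 and 86.4 CPM after TAC, so that KO TAC 1 alone lay above the sham range. The 16 cardiomyocyte markers summed to 95011 to 114946 CPM in sham and 63015, 75757 and 77954 CPM in TAC libraries, with 1 call (Tnni3).

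**Figure D3:**
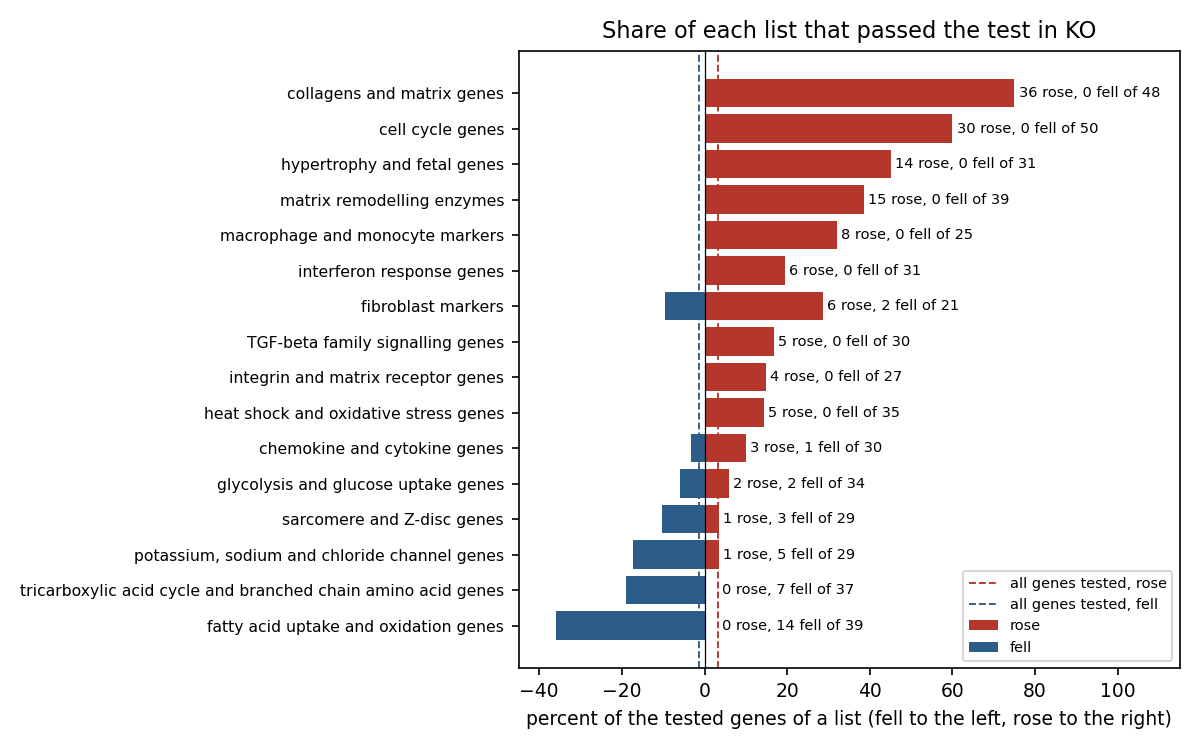
Percent of the tested genes of each list that rose (red, to the right) or fell (blue, to the left) in KO TAC against KO sham, for the lists with at least 10 tested and at least 3 called genes. Dashed lines mark the shares over all genes tested, 3.32% higher and 1.37% lower, and the matrix genes (36 of 48) and cell cycle genes (30 of 50) have the longest bars.

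Cell cycle genes formed the other large block of rises. Of 50 tested 30 rose (60.0%, beside 3.32% of all genes) and 0 fell, and the list median of 3.17 was the highest of the pathway lists. Cdk1, the kinase that drives entry into mitosis, measured 1.30, 0.664 and 1.60 CPM after sham and 23.0, 20.3 and 26 CPM after TAC (log2 change 4.29 ± 0.39, edgeR adjusted p = 0.000447). Its cyclin partners rose too, Ccnb2 from 0, 0.362 and 0.208 CPM to 14, 8.09 and 10.2 CPM (5.64 ± 0.63, edgeR adjusted p = 0.00105) and Ccna2 from 1.58, 0.784 and 0.834 CPM to 30.1, 10.9 and 22.1 CPM (4.33 ± 0.50, edgeR adjusted p = 0.00111). All TAC values of these genes lay above all sham values. Over the 3 sham libraries Cdk1 had 48 counts, Ccna2 42 and Ccnb2 9.

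Other members of the list act in the spindle and in cell division. Nusap1, a spindle protein, rose by 4.45 ± 0.51 (edgeR adjusted p = 0.00111) and Hmmr, a spindle and hyaluronan-binding protein, by 4.44 ± 0.58 (edgeR adjusted p = 0.00213). Cep55, which is not in the list, acts in the final cut between daughter cells. It measured 0.278, 0.121 and 0.208 CPM after sham and 12.8, 6.13 and 14.4 CPM after TAC (5.78 ± 0.55, edgeR adjusted p = 0.000545). The proliferation marker Mki67 measured 1.2, 1.81 and 0.625 CPM against 71.5, 11.9 and 13.6 CPM (4.72 ± 0.83, edgeR adjusted p = 0.00762), and Top2a, the topoisomerase of chromosome segregation, 1.11, 1.27 and 1.25 CPM against 48.9, 10.1 and 10.4 CPM.

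The difference between these and the replication genes of the list was not tested. The helicase subunits Mcm2 to Mcm7 had log2 changes of 0.14 (Mcm2), 0.87 (Mcm3), 0.40 (Mcm4), 1.31 (Mcm5), 0.98 (Mcm6) and 0.47 (Mcm7), the replication clamp Pcna -0.09 and the cyclin genes Ccnd1 and Ccnd2 0.59 and 0.12, and none passed the test. Rrm2, the ribonucleotide reductase subunit made in S phase, did rise, by 2.67 ± 0.57 (edgeR adjusted p = 0.021). KO TAC 1 was the highest TAC library for 26 of the 30 genes that rose, and the list median was 3.72 in KO TAC 1, 2.47 in KO TAC 2 and 2.67 in KO TAC 3. Without KO TAC 1, 28 genes rose, 1 fell and the list median was 2.61, and with limma-voom 18 rose. Which cells carried these RNAs was not tested. Macrophage, fibroblast and endothelial marker levels are given for the same libraries in the paragraphs on those cells.

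Promoters of 3 of these genes are shown because they hold copies of the CCAAT box, bound by the factor NF-Y, and of the cell cycle homology region (TTTGAA), both known from genes of the mitotic phase. They are from the RefSeq table for GRCm38.p6, 250 bases before each RefSeq start on the minus strand: Cdk1 at chr10:69352913-69353162, Ccnb2 at chr9:70421555-70421804 and Cdc20, an activator of the anaphase-promoting complex, at chr4:118437344-118437593. Capitals mark both elements, the CCAAT box also where it lies on the other strand.
Cdk1: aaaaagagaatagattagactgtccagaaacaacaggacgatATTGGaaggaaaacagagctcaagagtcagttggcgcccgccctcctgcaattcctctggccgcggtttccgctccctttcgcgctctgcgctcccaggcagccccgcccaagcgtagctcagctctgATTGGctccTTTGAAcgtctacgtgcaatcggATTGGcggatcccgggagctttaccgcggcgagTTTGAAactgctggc
Ccnb2: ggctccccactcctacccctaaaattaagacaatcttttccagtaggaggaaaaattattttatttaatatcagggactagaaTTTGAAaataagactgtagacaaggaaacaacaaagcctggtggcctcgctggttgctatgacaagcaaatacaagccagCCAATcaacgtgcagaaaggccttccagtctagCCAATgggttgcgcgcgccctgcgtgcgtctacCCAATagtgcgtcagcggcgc
Cdc20: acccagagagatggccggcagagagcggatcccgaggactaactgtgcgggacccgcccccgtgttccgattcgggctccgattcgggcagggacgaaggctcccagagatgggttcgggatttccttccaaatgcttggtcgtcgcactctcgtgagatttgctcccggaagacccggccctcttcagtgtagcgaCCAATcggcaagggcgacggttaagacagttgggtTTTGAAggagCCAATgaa
Of the 40 cell cycle genes with an entry 31 held CCAAT on either strand (77.5%), beside 40.1% of the tested genes with an entry and 33.8% of all promoters in the table. The letters TTTGAA were in 27.5% of the cell cycle genes, in 12.9% of the tested genes and in 16% of all promoters. Both letter strings were chosen after the changes were seen, and the shares carry no test. Cdc20 itself rose from 1.2, 0.543 and 0.486 CPM to 8.44, 6.53 and 4.63 CPM (3.16 ± 0.45, edgeR adjusted p = 0.00308).

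Genes of fatty acid use fell, 14 of 39 tested (35.9%, beside 1.37% of all genes), with 0 rises and a median of -1.12. Acaa2, the thiolase of the last step of mitochondrial beta-oxidation, measured 834, 849 and 1053 CPM after sham and 348, 190 and 198 CPM after TAC (log2 change -1.89 ± 0.33, edgeR adjusted p = 0.00705). Acadm, the medium-chain acyl-CoA dehydrogenase, measured 1682, 1484 and 1707 CPM against 714, 592 and 707 CPM (-1.28 ± 0.24, edgeR adjusted p = 0.0116). Decr1, a reductase for unsaturated fatty acids, fell by 1.31 ± 0.24 (edgeR adjusted p = 0.0106) and Eci1, an isomerase of the same route, by 1.34 ± 0.26 (edgeR adjusted p = 0.0125). The TAC libraries lay below all sham libraries for 27 of the 39 genes, against 12.8% of all genes tested.

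Cd36 and Cpt1b, of fatty acid uptake and mitochondrial entry, were not called. Cd36, the main fatty acid transporter, measured 1990, 1848 and 2604 CPM after sham and 1447, 1631 and 1388 CPM after TAC (-0.53 ± 0.26, edgeR adjusted p = 0.289), and Cpt1b, the carnitine transferase at the outer mitochondrial membrane, changed by -0.64 ± 0.37 (edgeR adjusted p = 0.381). Acot1, a thioesterase, fell by 2.16 ± 0.45, and its near-identical neighbour Acot2 by 1.58, although how reads shared by such copies were counted was not given. The count of falls was 18 without KO TAC 1, 1 without KO TAC 2, 1 without KO sham 3 and 2 with library totals, where the list median was -0.67.

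Among genes of the citrate cycle and of branched chain amino acid breakdown 7 of 37 fell (18.9%) and 0 rose, with a median of -0.79. All 7 belong to the breakdown of leucine, isoleucine and valine. Bckdhb and Dbt, subunits of the branched chain keto acid dehydrogenase that commits these amino acids to oxidation, were very even within groups. Bckdhb measured 65.1, 63.7 and 63.9 CPM against 26.5, 23.9 and 27.8 CPM (-1.30 ± 0.21, edgeR adjusted p = 0.00529), and Dbt 86.1, 84.4 and 82.7 CPM against 37.0, 34.6 and 32.5 CPM (-1.28 ± 0.23, edgeR adjusted p = 0.00985). Ppm1k, the phosphatase that activates this complex, fell by 1.67 ± 0.31 (edgeR adjusted p = 0.0106). The called branched chain genes Mccc2 and Aldh6a1 changed by -1.15 to -0.63 and by -1.17 to -0.63 over the 16 other settings. Of the citrate cycle genes Idh2 changed by -1.08, Sdha by -1.09 and Cs by -0.74, and none passed. The difference between these parts of the list was not tested. In all, 34 of the 37 genes had every TAC value below every sham value, against 12.8% of all genes, and with library totals 1 of them was called and the median was -0.33. DESeq2 called 25 of the 37 lower and the fit with the ribosomal protein share 22, so that which part of the list is called depends on the setting. Leaving out a library gave 3 falls without KO sham 1, 2 or 3, 9 without KO TAC 1, 1 without KO TAC 2 and 2 without KO TAC 3.

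None of the 48 nuclear genes of the respiratory chain and ATP synthase was called (list median -0.55). Their median difference from the sham mean was -1.34 in KO TAC 1, -0.23 in KO TAC 2 and -0.21 in KO TAC 3, so that the list was low in 1 TAC library in the main. DESeq2 called 9 of them lower, and a fit with the ribosomal protein share as covariate 24. The cytoplasmic ribosomal protein genes had the same library apart, at -1.14 in KO TAC 1 against 0.88 and 0.82 in KO TAC 2 and 3, with 1 of 84 genes called, Rpl3l. Rpl3l, the muscle form of a ribosomal protein, fell from 253, 223 and 236 CPM to 85.1, 50.2 and 51.4 CPM (-1.93 ± 0.35, edgeR adjusted p = 0.0096).

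Of 34 glucose genes 2 rose and 2 fell (5.88% each, beside 3.32% and 1.37% of all genes), and with library totals 4 rose and 1 fell. Slc16a3, a lactate exporter, rose from 0.556, 0.543 and 0.556 CPM to 4.43, 4.45 and 5.09 CPM (3.06 ± 0.44, edgeR adjusted p = 0.00308), and Pfkp, the platelet form of phosphofructokinase, by 1.65 ± 0.28 (edgeR adjusted p = 0.00693). Slc2a4, the insulin-regulated glucose transporter, fell from 343, 344 and 277 CPM to 169, 118 and 124 CPM (-1.23 ± 0.27, edgeR adjusted p = 0.0236, a call lost in 6 of 16 settings), and Pfkfb1, a bifunctional regulator of glycolysis, by 2.38 ± 0.40 (edgeR adjusted p = 0.00664). Among 30 regulators of energy metabolism 1 was called, Klf15, a transcription factor of lipid and amino acid use, which fell from 56.0, 74.0 and 36.9 CPM to 12.6, 21 and 29.2 CPM (-1.41 ± 0.34, edgeR adjusted p = 0.0345). The coactivator Ppargc1a and the receptors Esrra and Ppara changed by -0.42, -0.62 and -0.52 and did not pass.

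**Figure D4:**
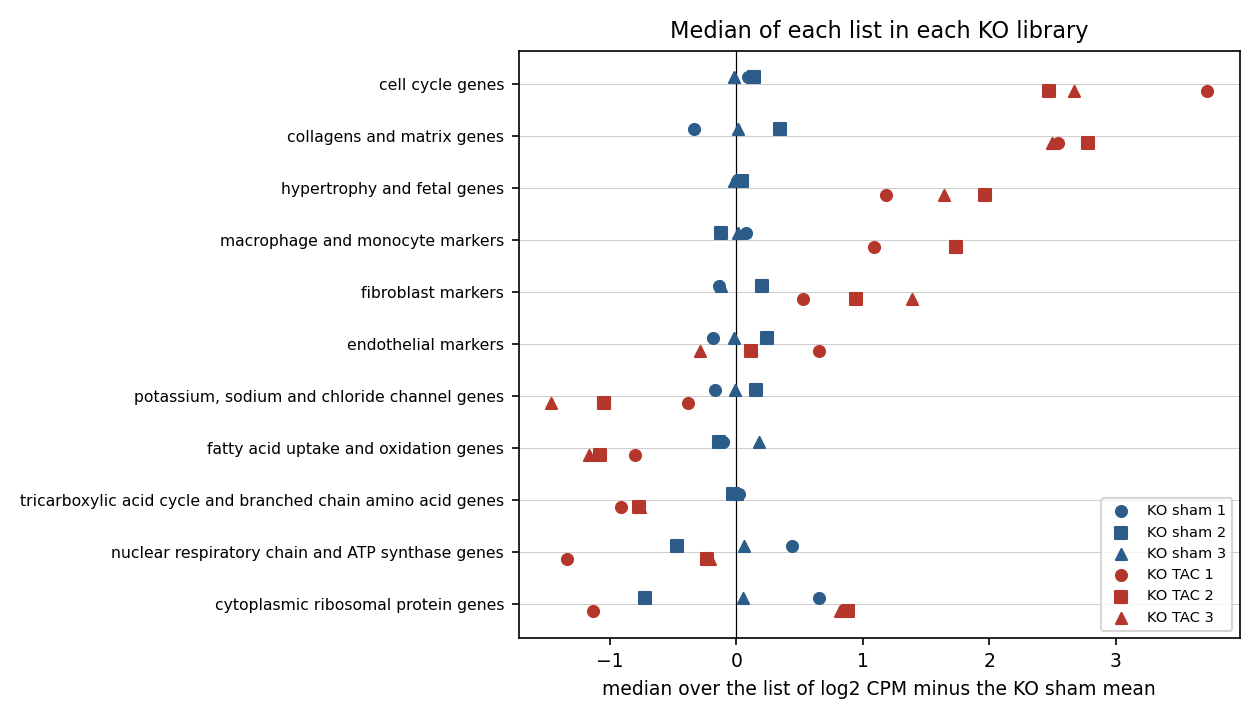
Median over each list of the difference in log2 CPM from the KO sham mean, for each of the 6 KO libraries (blue sham, red TAC, with a symbol for each replicate). KO TAC 1 lies highest for cell cycle genes (3.72) and lowest for ribosomal protein genes (-1.14), while the 3 TAC libraries lie together for matrix genes (2.5 to 2.78).

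Macrophage genes rose, 8 of 25 markers (32.0%) with 0 falls and a median of 1.70. Lgals3, galectin-3, a lectin made by activated macrophages, measured 1.85, 1.09 and 1.60 CPM after sham and 11.3, 26.5 and 38.4 CPM after TAC (4.08 ± 0.65, edgeR adjusted p = 0.00508). Adgre1, the F4/80 antigen, rose from 7.51, 4.89 and 7.78 CPM to 18.9, 21.7 and 32.3 CPM (1.86 ± 0.33, edgeR adjusted p = 0.00825), and Ccr2, the chemokine receptor of recruited monocytes, from 2.97, 1.75 and 5.49 CPM to 20.4, 22.5 and 9.72 CPM (2.37 ± 0.43, edgeR adjusted p = 0.00913). Trem2, a receptor of lipid-handling macrophages, rose by 3.44 ± 0.78 (edgeR adjusted p = 0.0263). Genes of resident macrophages, Lyve1 and Timd4, changed by -0.06 and -0.20 and did not pass. The list summed to 321 to 549 CPM in sham libraries and 718, 1502 and 1913 CPM in KO TAC 1 to 3, and 12 markers rose without KO TAC 1 against 3 without KO sham 1.

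Of 12 lymphocyte and 11 neutrophil and mast cell markers 0 were called. The neutrophil and mast cell markers had a median log2 change of 1.81 and summed to 6.94 to 11 CPM in sham and 13.2, 16.1 and 50.1 CPM in TAC libraries, and 5 were called higher without the filter on low counts. Summed lymphocyte markers stood at 12.6 to 22.2 CPM in sham and 22.9 to 29.7 CPM in TAC libraries. Red blood cell markers ranged from 370 to 1109 CPM in sham and from 280 to 2702 CPM in TAC libraries, and none of 8 was called. Ptprc, the CD45 antigen common to white blood cells, was called, with a log2 change of 1.46 (edgeR adjusted p = 0.0125).

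Interferon response genes rose in part, 6 of 31 (19.4%), with 0 falls and a median of 0.83 that was alike in the 3 TAC libraries (0.91, 0.89 and 0.84). Ifi204, a nucleic acid sensor, measured 6.67, 4.53 and 6.74 CPM after sham and 14.6, 19.1 and 20.5 CPM after TAC (1.60 ± 0.29, edgeR adjusted p = 0.00836). Mx1, an antiviral GTPase, rose by 3.13 ± 0.68 (edgeR adjusted p = 0.0224), Irf7, a regulator of interferon genes, by 1.44 ± 0.37 (edgeR adjusted p = 0.0475), and Zbp1, another nucleic acid sensor, by 2.19 ± 0.51 (edgeR adjusted p = 0.029). The count was 1 without KO sham 2, KO sham 3 or KO TAC 2, one at a time. Among 30 chemokine and cytokine genes Cxcl10, Ccl8 and Osmr rose and Il15, a lymphocyte growth factor, fell from 81.9, 54.1 and 34.5 CPM to 5.77, 11.8 and 18.1 CPM (-2.26 ± 0.44, edgeR adjusted p = 0.0127). The calls of Cxcl10, Ccl8 and Osmr were lost in 6, 7 and 6 of 16 settings, and 0 genes of the list rose without KO sham 1, 2 or 3 or KO TAC 2, left out one at a time, or with limma-voom.

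Several of the largest rises began from almost no counts in KO sham. Cthrc1, a collagen-associated protein of activated fibroblasts, had 0 counts in the 3 sham libraries and 216 in the TAC libraries, at least 53.9-fold higher when the sham libraries together are set to 3 counts. C1qtnf3, a secreted protein of cartilage and fibroblasts, had 2 and 1256 counts, a ratio of 470 (95% interval for counting error 129.9 to 3887). Serpinb9b, an intracellular serine protease inhibitor, had 1 and 633 counts, a ratio of 474 (84.8 to 18750), and belongs to a family of close copies. Kif2c, a mitotic kinesin, had 1 and 275 counts, a ratio of 206 (36.7 to 8162).

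P4ha3, a collagen proline hydroxylase, had 1 count after sham and 151 after TAC, and the mitotic genes Depdc1a and Cdca2 had 1 and 149 and 2 and 222 counts. The collagen genes Col9a2 and Col11a1 are best known from cartilage. Col9a2 measured 1.72, 5.95 and 3.89 CPM after TAC, with 2 counts or fewer over the sham libraries. Col11a1 was lowest in KO TAC 1 of the TAC libraries and measured 0, 0.302 and 0.0695 CPM after sham and 0.715, 16.2 and 14.2 CPM after TAC (6.13 ± 1.23, edgeR adjusted p = 0.0153). Pimreg, a regulator of the metaphase to anaphase step, measured 0.0927, 0.181 and 0.0695 CPM against 11.2, 7.45 and 14.6 CPM (6.46 ± 0.76, edgeR adjusted p = 0.00126).

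The largest falls were in genes of varied kinds. Penk, the precursor of enkephalin peptides, measured 14.2, 1.75 and 12.3 CPM after sham and 1.24, 0.404 and 0 CPM after TAC (-4.04 ± 1.02, edgeR adjusted p = 0.0429). Ano10, an anoctamin family membrane protein, measured 265, 77.2 and 156 CPM against 20.1, 14.7 and 10.1 CPM (-3.47 ± 0.47, edgeR adjusted p = 0.00262), and Ces1d, a carboxylesterase that hydrolyses lipids and one of a cluster of similar genes, 190, 144 and 154 CPM against 26.7, 6.76 and 15.9 CPM (-3.30 ± 0.51, edgeR adjusted p = 0.00432). Ano10 and Ces1d were called in all 16 other settings, and Penk lost its call in 6. The other large falls, among genes averaging 1 CPM or more, were Prss55 (-3.94), Klhl33 (-3.81), Inmt (-3.72), Retnla (-3.66), Chrna2 (-3.62), Acsm5 (-3.39), Sbk2 (-3.34) and Poln (-3.21), and each lost its call in some settings: Prss55 in 3, Inmt in 4, Poln in 5, Klhl33 and Retnla in 6, Chrna2 in 8, and Acsm5 and Sbk2 in 9.

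The falls with the smallest p-values included 4 genes not yet described. Phkg1, the catalytic subunit of muscle phosphorylase kinase, measured 17.6, 22.2 and 20.8 CPM after sham and 3.77, 0.925 and 2.63 CPM after TAC (-3.04 ± 0.41, edgeR adjusted p = 0.00262). Pink1, the kinase that marks damaged mitochondria for removal, fell from 606, 601 and 524 CPM to 191, 146 and 164 CPM (-1.79 ± 0.26, edgeR adjusted p = 0.00317). Gstk1, a glutathione transferase of mitochondria and peroxisomes, fell by 1.67 ± 0.23 (edgeR adjusted p = 0.00275) and Smco1, a membrane protein, by 2.08 ± 0.30 (edgeR adjusted p = 0.00319). The groups of these 4 genes did not overlap, and their calls were kept in all 16 settings.

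Genes of the nuclear envelope and of nuclear transport, which the title of the series concerns, gave 0 calls in KO: 0 of 24 lamina and envelope genes, 0 of 29 nuclear pore genes and 0 of 31 transport receptor genes, beside 4.7% of all genes. Their medians were -0.11, 0.07 and -0.07. The lamina gene Lmna, which encodes lamins A and C, measured 40.1, 51.0 and 56.2 CPM after sham and 77.1, 75.9 and 54.6 CPM after TAC (0.49 ± 0.25, edgeR adjusted p = 0.321). DESeq2 called 2 of the lamina genes higher, Lmnb1 and Lmnb2, 0 of the pore genes and 1 of the transport receptor genes lower. A missed threshold does not show that their levels were equal.

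The share of rises was 2.94% for MAP kinase feedback and immediate early genes, 5.26% for calcineurin genes and 7.41% for adrenergic, angiotensin and endothelin genes. Over all genes tested it was 3.32%, and these small counts are not read as results about the lists. Of 34 MAP kinase feedback and immediate early genes 1 rose, Etv4, a transcription factor downstream of ERK, from 2 counts over the sham libraries to 64 over the TAC libraries. Fos and Egr1, immediate early transcription factors, changed by -0.27 and -0.42 and did not pass. Of 19 calcineurin genes Rcan1 alone was called. Of 27 adrenergic, angiotensin and endothelin genes 2 rose, Ace, the angiotensin converting enzyme, by 1.41 ± 0.29 (edgeR adjusted p = 0.0181), and Edn1, the precursor of endothelin-1, by 1.24 ± 0.30 (edgeR adjusted p = 0.0382). None of 19 circadian genes was called.

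The response of KO hearts was set beside that of control hearts, which comes from other libraries. Both responses were taken from the same fit, with a shared filter, scaling and estimate of spread for each gene. The calls in KO and WT are therefore not independent. Among the controls only WT TAC 1 carried the title letter F, so that letter and surgery are partly confounded there. With the title letter as covariate the interaction described below called 0 genes. In WT 1011 genes were called (6.92% of those tested), with 567 higher (3.88%) and 444 lower (3.04%). Of the 486 rises in KO 302 also rose in WT (62.1% of the KO rises and 53.3% of the WT rises), and of the 201 falls 144 also fell (71.6% and 32.4%). Of the 687 genes called in KO 684 changed with the same sign in WT, and 0 were called in the opposite direction. The test of the difference itself, the interaction of surgery and genotype, called 0 genes, with 434 (2.97%) at an unadjusted p under 0.05. DESeq2 called 2, Il1b and the unnamed gene 2610507I01Rik, and limma-voom 0.

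**Figure D5:**
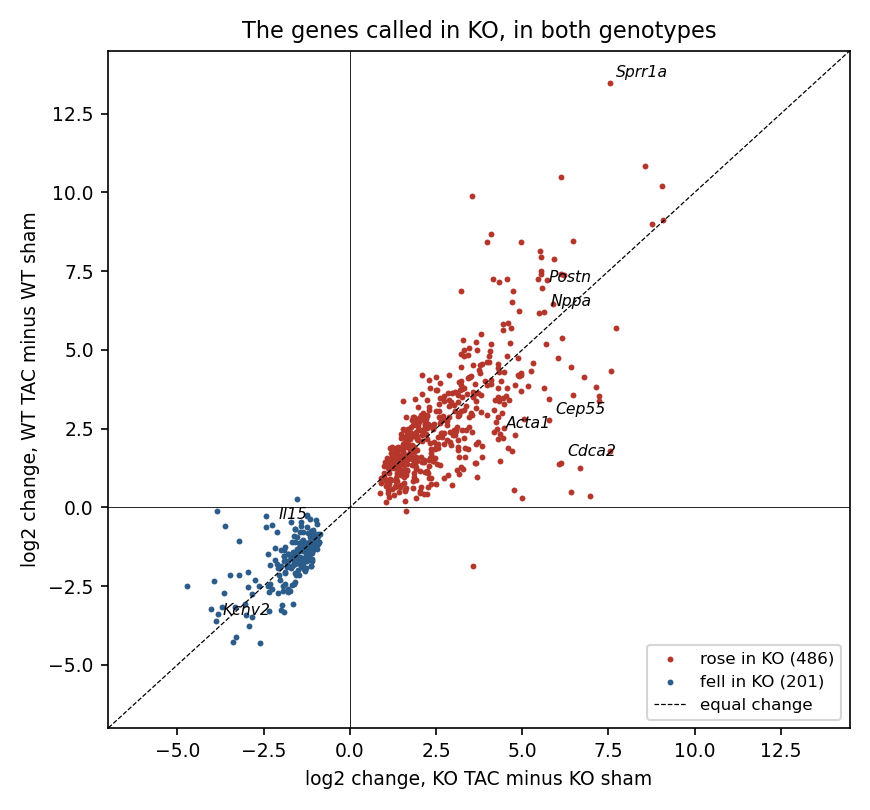
Log2 change of the 687 genes called in KO, KO TAC minus KO sham (horizontal axis) and WT TAC minus WT sham (vertical axis), in red for the 486 that rose and in blue for the 201 that fell in KO. Nearly all lie in the quadrants of equal sign, 684 of 687, and the dashed line marks equal change in both genotypes.

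Among the hypertrophy genes some had like values in both genotypes and others did not. The log2 change of Nppa was 5.63 in KO and 6.21 in WT, of Ankrd1 2.64 and 2.37, of Nmrk2 4.29 and 4.44 and of Rcan1 1.81 and 1.89. Acta1 had 4.35 in KO and 2.33 in WT, a difference of 2.02 ± 0.71 with an unadjusted p of 0.0143 that edgeR adjusted to 0.992. Sprr1a had 7.54 in KO and 13.47 in WT (difference -5.93 ± 3.09, edgeR adjusted p = 0.992). It had almost no counts in WT sham, so the sizes of its WT change and of this difference are not well determined. Without the filter on low counts edgeR called both differences (adjusted p = 0.0499 for Acta1 and 0.0328 for Sprr1a). Postn had 5.58 in KO and 6.95 in WT (difference -1.37 ± 0.56, edgeR adjusted p = 0.992). The list medians in KO and WT were 1.71 and 1.89 for hypertrophy genes, 2.65 and 3.20 for matrix genes, 3.17 and 2.22 for cell cycle genes, and -1.12 and -1.13 for fatty acid genes.

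Setting aside clone and predicted names and genes averaging under 1 CPM, Il1b, the gene of the inflammatory cytokine interleukin-1 beta, had the smallest interaction p (0.000192). It measured 0.741, 0.362 and 0.764 CPM in KO sham and 2.05, 3.12 and 3.26 CPM in KO TAC, with a log2 change of 2.17 ± 0.60 that did not pass (edgeR adjusted p = 0.0586). In WT its change was -2.54, and the difference of 4.71 ± 0.90 did not pass in edgeR (adjusted p = 0.992) but did in DESeq2 (adjusted p = 0.0114) and in edgeR without the filter on low counts (adjusted p = 0.0101). Neutrophil and mast cell markers stand beside it: their median difference between the genotypes was 2.25, 4 of 11 had an unadjusted p under 0.05, and they summed to 8.88 and 36.1 CPM in the WT sham libraries. Their part in the Il1b value was not tested. The other genes taken by the same rule were Car3, a carbonic anhydrase of fat and muscle (-5.12 in KO, 3.74 in WT), Cep55 (5.78 and 2.77), Cpxm2, a carboxypeptidase-like protein (0.63 and -1.89), the pseudogene Tdpx-ps1 (1.56 and -3.0), Zfp30, a zinc finger protein (0.39 and -1.03), Cdca2 (6.13 and 1.42) and Mfap4 (3.28 and 5.33). With the filter on low counts none of these differences passed after adjustment over all genes, and without it those of Car3, Tdpx-ps1, Cpxm2 and Mfap4 did. Car3 is also an adipocyte marker, and the adipocyte genes Adipoq and Cfd had KO changes of -3.35 and -3.36 and WT changes of 2.88 and 3.49, none of the 5 adipocyte markers tested being called in KO. The part of fat tissue in the samples was not tested.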

How the data were processed

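Bulk RNA-seq of ventricular myocardium was deposited as a table of whole-number read counts for 46517 Ensembl gene identifiers in 11 libraries. STAR 2.5.1, featureCounts, DESeq2 and GRCm38 are named in the submitters' processing notes. The sources used here do not give their settings, the strand or the treatment of reads that map to several genes, so reads of overlapping or near-identical genes cannot be told apart. Symbols came from GENCODE M21 for 46005 identifiers.

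Counts were fitted with edgeR 4.0.16 in R 4.3.3 (filterByExpr, TMM, quasi-likelihood test, 2-sided, Benjamini-Hochberg threshold 0.05) over all 11 libraries with a mean for each group and 7 residual degrees of freedom. Standard errors are the log2 change divided by the square root of F, and are approximate. DESeq2 1.42.0 and limma 3.58.1 (voom) were alternatives, beside other scaling, filters, covariates and leaving out libraries. The fit was tested on simulated data. Groups follow the labels for genotype and treatment. Nothing in the labels says more on the source of replicates than a title for each mouse, and p-values measure the spread between these samples. Intervals and floors cover counting error only.

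Members and gene lists were chosen with earlier results of these data known. Genes were named by rule: the lamins, a short set of hypertrophy genes, the 12 largest rises and falls among genes that average 1 CPM or more and have separate groups, the 6 with the smallest p in each direction, the 5 with the smallest p of each list with at least 3 calls, and the 8 with the smallest interaction p. Other genes, the gene families of the closing section, and the motif letters CCAAT and TTTGAA were chosen after their values were seen. A few of those that qualified by rule are not reported here.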

Additional observations from a re-analysis of the deposited data

How the results depend on the processing

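Of the 118 genes named by rule 104 were called, and 53 of these kept their call in all 16 settings run for them. Another 16 lost it in 1 to 3 settings, 30 in 4 to 7 and 5 in 8 or more (Acsm5, Chrna2, Sbk2, Tnni3 and Trim63), and 0 calls reversed. The counts moved more. Against 687 called (486 rose, 201 fell), library totals without TMM gave 1385 (1325 and 60), DESeq2 1490 (939 and 551), no filter on low counts about 1.3e+03 (928 and 403) and the ribosomal protein share as covariate 1428 (819 and 609). With limma-voom 290 rose. Of all calls 70.7% were higher, against 95.7% with library totals, 57.4% with the ribosomal protein share and 58.5% with limma-voom. Leaving out KO libraries one at a time gave 226 (without KO sham 1) to 972 (without KO TAC 1) calls, 174 to 582 rises and 43 (without KO TAC 2) to 390 (without KO TAC 1) falls. Calls numbered 312 without KO sham 2, 255 without KO sham 3, 309 without KO TAC 2 and 389 without KO TAC 3. The KO calls also depended on the control libraries. With the KO libraries alone 427 genes rose and 157 fell. Leaving out each control library in turn gave 406 (without WT sham 1) to 678 (without WT TAC 3) rises and 145 to 318 falls in KO. Leaving out KO TAC 1 and WT TAC 3 together, chosen after seeing the data, gave 2117 (1081 and 1036). The interaction called 2 genes with DESeq2, 80 without the filter and 1 with those libraries left out, and 0 otherwise. The cause of these shifts was not tested. No paired analysis was possible because the labels give no replicate numbers that groups share. With 3 libraries a group and a median standard error of 0.39 on the log2 scale, small changes cannot be resolved.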

Other observations

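Of 35 heat shock and oxidative stress genes 5 rose (14.3%) and 0 fell: Nox4, an NADPH oxidase that makes hydrogen peroxide (log2 change 4.32), Mt2, a metal-binding metallothionein (2.23), Gpx3, a secreted glutathione peroxidase (2.20), Hmox1, heme oxygenase (1.84), and Cybb, the oxidase subunit of phagocytes (1.63). These rises fell to 0 without KO sham 1, 1 without KO sham 3 and 2 without KO sham 2 or KO TAC 2, and the calls of Hmox1, Gpx3 and Cybb were lost in 6, 5 and 5 of 16 settings. Of 27 integrin and matrix receptor genes 4 rose (14.8%), among them the hyaluronan receptor gene Cd44 (2.07) and the integrin gene Itgb3 (2.37). Of 25 integrated stress and serine synthesis genes and of 25 p53 target genes 2 each rose (8%, beside 3.32% of all genes), and 0 of the former rose in 4 of 6 leave-one-out fits.

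Gene families were also read by symbol, beside 3.32% of all genes tested that rose and 1.37% that fell. Of 11 annexins, proteins that bind membranes in the presence of calcium, 6 rose (Anxa1, Anxa2, Anxa3, Anxa4, Anxa5 and Anxa8). Of 36 kinesins, motor proteins of microtubules, 11 rose, and of 20 centromere proteins 6. Of 4 secreted frizzled-related proteins, which bind Wnt ligands, 3 rose, Frzb by 3.08 and Sfrp1 by 2.5, the other being Sfrp2. Of 20 glutathione transferases 4 fell (Gstk1, Gstm7, Gstm1 and Gstt1) and 0 rose, and several of them are near-identical copies. Of 7 C-type lectin genes of the Clec4 group, expressed by myeloid cells, 4 rose. Of 16 aldehyde dehydrogenases 1 rose (Aldh1a2) and 3 fell, and of 9 S100 proteins 1 rose. These single rises are not read as results about the families. These families were chosen after their values were seen, and the counts carry no test.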
